A study of Mus musculus with 8 samples.

Results

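The voltage-gated sodium, calcium and HCN channel genes of the mouse olfactory epithelium were taken as every gene of the deposited count table whose symbol is Scn, a number and a or b, begins with Cacna, Cacnb or Cacng, or is Hcn and a single digit. This rule uses names only and found 42 of the 25913 genes in the table. They comprise 8 sodium channel alpha and 4 sodium channel beta subunits, 10 calcium channel alpha1, 4 alpha2delta, 4 beta and 8 gamma subunits, and 4 HCN channels. Scn2a1 carries an extra digit and is not matched by the rule.

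RNA came from dissected olfactory epithelium of C57BL/6J mice aged 40 weeks, 8 libraries in all. Of these, 4 are titled IGF1R_flfl (numbered 1, 2, 13 and 3) and 4 are titled OMP_IGF1R (numbered 11, 12, 17 and 18). The design text describes a homozygous tissue-specific IGF1R knockout, named OMPIGF1R, and its control, named OMPflfl. In the genotype field the names are the other way round, OMPIGF1 (KO) for the libraries titled IGF1R_flfl and OMPflfl (Ctrl) for those titled OMP_IGF1R. Groups are therefore named here by their titles. Igf1r, the gene of the insulin-like growth factor receptor, stood at 55.5 to 72.9 CPM (counts scaled to the library total) in the libraries titled IGF1R_flfl and at 34.5 to 49.6 CPM in those titled OMP_IGF1R, without overlap (log2 fold change -0.66, adjusted p = 0.0117 by edgeR). The allele name carries OMP, the olfactory marker protein gene, which mature olfactory sensory neurons express, the driver of the deletion is not spelled out further in the sources used here, and the dissected tissue holds other cells as well. The numbers that open the titles lie in a separate range for each group, so a batch that follows them and the group cannot be told apart. The sources used here do not say whether each library is 1 animal, so the p-values measure the spread between libraries, which may be technical.

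Voltage-gated sodium channels open on depolarisation and carry the upstroke of the action potential, with a pore-forming alpha subunit and beta subunits that shape its gating and place in the membrane. Voltage-gated calcium channels couple depolarisation to transmitter release and to calcium-dependent signalling, through an alpha1 pore with beta and alpha2delta subunits. HCN channels open on hyperpolarisation, bind cyclic nucleotides directly and pass a mixed sodium and potassium current. In olfactory sensory neurons, odorant receptors raise cyclic AMP at the cilia, and action potentials then run along the axon to the olfactory bulb.

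Hcn2 and Hcn4 were lower in the libraries titled OMP_IGF1R and Hcn3 was not called, so the stretch that codes for the pore is shown to let these 3 transcripts be compared. Each line is 81 bases of the GENCODE M21 transcript (GRCm38), read 5′ to 3′, and the capitals mark the codons of the glycine-tyrosine-glycine selectivity filter.
Hcn2: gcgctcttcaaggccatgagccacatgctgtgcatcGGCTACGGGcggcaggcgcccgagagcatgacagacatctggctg
Hcn3: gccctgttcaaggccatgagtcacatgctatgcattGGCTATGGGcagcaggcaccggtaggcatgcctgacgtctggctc
Hcn4: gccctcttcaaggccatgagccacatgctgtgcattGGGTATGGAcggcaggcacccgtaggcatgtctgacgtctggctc
Over these 81 bases Hcn3 and Hcn4 were the most alike of the 3 pairs, with 90.1% of bases identical, and Hcn2 and Hcn3 the least alike, with 80.2%. The filter codons differ in sequence between the 3 genes. Of all stretches of 50 bases in their transcripts, none of Hcn2, Hcn3 or Hcn4 occurred in a transcript of another gene.

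The 250 bases before a RefSeq transcription start are shown for 4 of the genes that were lower in the libraries titled OMP_IGF1R, because these windows range from few to many CpG pairs. They are RefSeq sequences on GRCm38.p6, written 5′ to 3′ on the strand of the gene, with CpG pairs in capitals. The Scn9a window is chr2:66634963-66635212 on the minus strand. The Scn4b window is chr9:45138374-45138623, the Hcn2 window is chr10:79716384-79716633 and the Hcn4 window is chr9:58822699-58822948, all on the plus strand. RefSeq starts can differ from the gene starts of the count table. The Scn4b window runs past the start of 45138437 given there, and the Hcn4 window ends well before that of 58823512.
Scn9a: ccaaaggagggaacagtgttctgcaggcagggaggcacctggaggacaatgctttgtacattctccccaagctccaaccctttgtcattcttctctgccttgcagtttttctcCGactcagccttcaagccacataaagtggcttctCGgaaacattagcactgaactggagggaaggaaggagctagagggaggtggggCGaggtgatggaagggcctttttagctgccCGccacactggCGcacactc
Scn4b: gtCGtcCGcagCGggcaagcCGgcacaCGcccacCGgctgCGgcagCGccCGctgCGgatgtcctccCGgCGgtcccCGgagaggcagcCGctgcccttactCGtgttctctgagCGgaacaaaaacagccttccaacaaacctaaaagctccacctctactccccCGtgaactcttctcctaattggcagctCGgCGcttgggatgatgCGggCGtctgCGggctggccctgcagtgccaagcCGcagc
Hcn2: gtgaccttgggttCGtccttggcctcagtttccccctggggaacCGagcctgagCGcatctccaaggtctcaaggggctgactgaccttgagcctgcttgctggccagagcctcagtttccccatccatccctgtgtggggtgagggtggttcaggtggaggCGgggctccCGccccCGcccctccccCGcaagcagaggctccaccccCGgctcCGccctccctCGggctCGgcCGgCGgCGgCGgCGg
Hcn4: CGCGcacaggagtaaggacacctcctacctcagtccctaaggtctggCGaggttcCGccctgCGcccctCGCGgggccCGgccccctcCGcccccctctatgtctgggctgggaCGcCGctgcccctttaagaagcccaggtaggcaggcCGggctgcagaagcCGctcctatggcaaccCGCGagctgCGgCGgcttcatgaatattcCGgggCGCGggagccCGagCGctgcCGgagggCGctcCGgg
The window of Scn9a holds 5 CpG pairs, that of Hcn2 holds 16, that of Scn4b 23 and that of Hcn4 25. The median was 9 over the 40 windows of the 30 channel genes that the RefSeq table lists, and 6 over all 32851 windows in that table. All motifs were searched on both strands. The motif GGGCGG, a GC box, was found in 17 of the 40 channel windows (42.5%) and in 32.7% of all windows. Windows of the called Hcn2, Hcn4 and Cacnb3 held it, as did those of uncalled genes such as Cacna1b and Cacna1d. The windows of the called Scn9a and Scn4b did not. CAGCTG, an E-box, was found in 11 of the 40 (27.5%) and in 13% of all windows, but not in a window of any called gene. The palindromic motif of the Ebf (Olf1) factors and TAATTA, a homeodomain core, were found in 0 of the 40 and in 0.779% and 4.84% of all windows. The 12 channel genes not in the table include Cacna1a, Cacna1g, Cacna1h, Cacna2d4, Cacng1, Cacng4, Hcn3, Scn3a and Scn3b.

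Total counts ran from 18802471 to 27793375 per library. In the bulk tissue, fewer cells of a type and less RNA per cell cannot be told apart. Omp was lower in the libraries titled OMP_IGF1R, and so were all 12 markers of mature olfactory sensory neurons, whose summed level was 14780 to 20690 CPM against 8279 to 10120 CPM. Of 9 markers of immature neurons, 7 were higher, with summed levels of 843 to 978 CPM against 1260 to 1448 CPM. Among all tested genes 5.37% were called lower and 2.83% higher. All 8 sustentacular markers missed the threshold, with sums of 13950 to 16810 CPM against 14720 to 15710 CPM. Other cell types were not all level between the groups. Of 6 Trpm5 microvillar cell markers 3 were higher, with sums of 25.7 to 36.3 CPM against 49.55 to 70.2 CPM. Of 6 respiratory ciliated cell markers 2 were lower, with sums that overlapped. The part of these markers' shifts in the channel results below was not tested. A pair of libraries stood apart. Library IGF1R_flfl 2 had 2814 CPM of olfactory bulb and oligodendrocyte genes (714 to 871 CPM in the other 7) and 908 CPM of ensheathing glia and Schwann cell genes (209 to 308 CPM). Library OMP_IGF1R 17 had 598 CPM of skeletal muscle genes (7.22 to 18.1 CPM in the other 7). No listed marker of any cell type was at 0 in all 8 libraries.

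Of the 42 channel genes, 32 had enough counts to be tested in a fit over 17381 genes with edgeR's quasi-likelihood test. At a Benjamini-Hochberg adjusted p under 0.05, 8 were lower and 1 was higher in the libraries titled OMP_IGF1R, and 23 were not called. The 8 lower genes are 25.0% of those tested, and 5.37% of all tested genes were called lower. The 1 higher gene is 3.12% of those tested, and 2.83% of all tested genes were called higher. In either direction 28.1% of the channel genes and 8.20% of all genes were called. The channel genes, and the partner lists used below, were chosen with earlier results of these data known. Their shares here and below are therefore descriptions and not independent tests. The median log2 fold change of the 32 genes was -0.17, and that of all tested genes was -0.01. That median rests on library IGF1R_flfl 2: without it the value was 0.06, and without it and OMP_IGF1R 17 it was 0.03. The lower calls include Hcn2, Hcn4, Scn4b, Scn9a, Cacna1a and Cacnb3, and the higher call is Cacng4. The calls of Hcn2, Hcn4, Scn4b, Cacna1a and Cacng4 held in all 15 alternative settings. Those of Scn9a and Cacnb3 did not hold in all of them. Without IGF1R_flfl 1, without OMP_IGF1R 12 and without OMP_IGF1R 18, 5 genes were called lower. Without IGF1R_flfl 2, 3 were called higher, Cacna1e and Cacng4 among them, where 8.45% of all genes were called in either direction. Without OMP_IGF1R 17 Scn3a joined Cacng4, giving 2, where 6.73% of all genes were called in either direction.

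**Figure D1:**
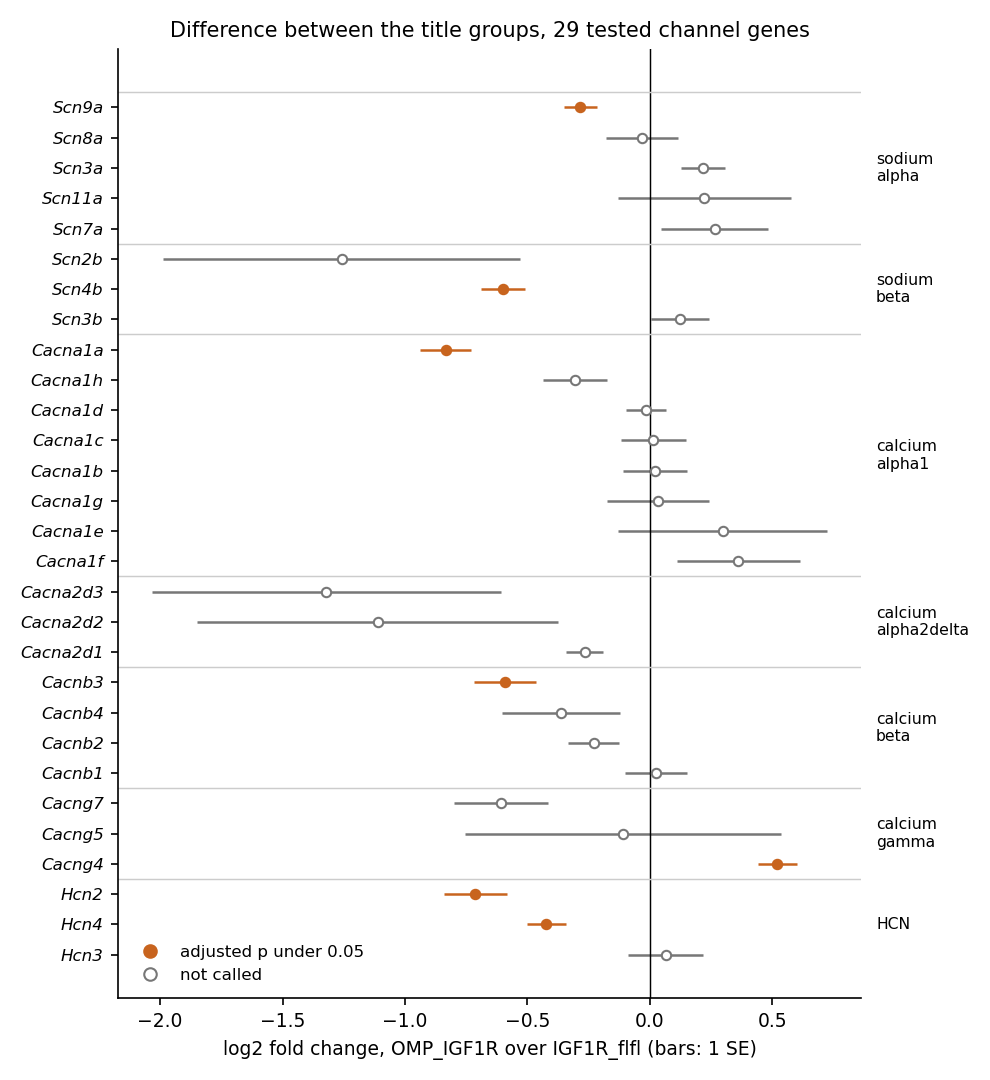
Log2 fold change of 29 tested channel genes, libraries titled OMP_IGF1R over those titled IGF1R_flfl (x axis), by family (y axis), with bars of 1 standard error; filled points have an adjusted p under 0.05 in edgeR's quasi-likelihood test. The 6 filled points left of 0 lie in the HCN, sodium and calcium families, and Cacng4 is the 1 filled point to the right.

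Of the HCN genes, Hcn2 and Hcn4 were lower. Hcn2 codes for a channel whose opening is strongly shifted by cyclic AMP. It lies on GRCm38 chromosome 10 from 79716634 to 79736108. In CPM it stood at 171, 161, 143 and 222 in libraries 1, 2, 13 and 3 of IGF1R_flfl, and at 109, 92.1, 115 and 109 in libraries 11, 12, 17 and 18 of OMP_IGF1R. Every library titled OMP_IGF1R was below every library titled IGF1R_flfl. The means were 174 ± 33.7 CPM (SD, n = 4) and 106 ± 9.99 CPM (SD, n = 4), and the log2 fold change was -0.71 (adjusted p = 0.0126 by edgeR, SE 0.13).

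Hcn4, the channel best known from the pacemaker cells of the heart, lies on chromosome 9 from 58823512 to 58860955. Its levels were 42.1, 35.2, 38.1 and 43.5 CPM in libraries 1, 2, 13 and 3 of IGF1R_flfl, and 30.6, 27.4, 29.1 and 31.6 CPM in libraries 11, 12, 17 and 18 of OMP_IGF1R. The groups did not overlap, with means of 39.7 ± 3.80 CPM and 29.6 ± 1.83 CPM (SD, n = 4 each). The log2 fold change was -0.42 (adjusted p = 0.0141 by edgeR, SE 0.08).

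Hcn3, another member of the family, was not called. Its levels were 1.96, 2.10, 1.95 and 2.38 CPM in libraries 1, 2, 13 and 3 of IGF1R_flfl, and 2.19, 1.96, 2.08 and 2.53 CPM in libraries 11, 12, 17 and 18 of OMP_IGF1R. The groups overlapped, and the log2 fold change was 0.06 (adjusted p = 0.844 by edgeR, SE 0.15). Whether the change of Hcn3 differs from those of Hcn2 and Hcn4 was not tested. Of its exon bases 17.1% overlap exons of Pklr on the opposite strand, and without a stated strand setting of the counting the reads there cannot be told apart.

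Per kb of exon, Hcn2 was the highest of the family, at 54.5 CPM per kb in the libraries titled IGF1R_flfl and 33.3 CPM per kb in those titled OMP_IGF1R. Hcn4 followed at 6.49 and 4.84 CPM per kb, and Hcn3 stood at 0.504 and 0.528 CPM per kb. Hcn2 thus made up 86.9% and 84.5% of the family's summed level. That sum was 62.6 ± 11.02 CPM per kb in the libraries titled IGF1R_flfl and 39.4 ± 3.36 CPM per kb in those titled OMP_IGF1R (SD, n = 4 each), 0.629 times as high, with no overlap between groups.

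**Figure D2:**
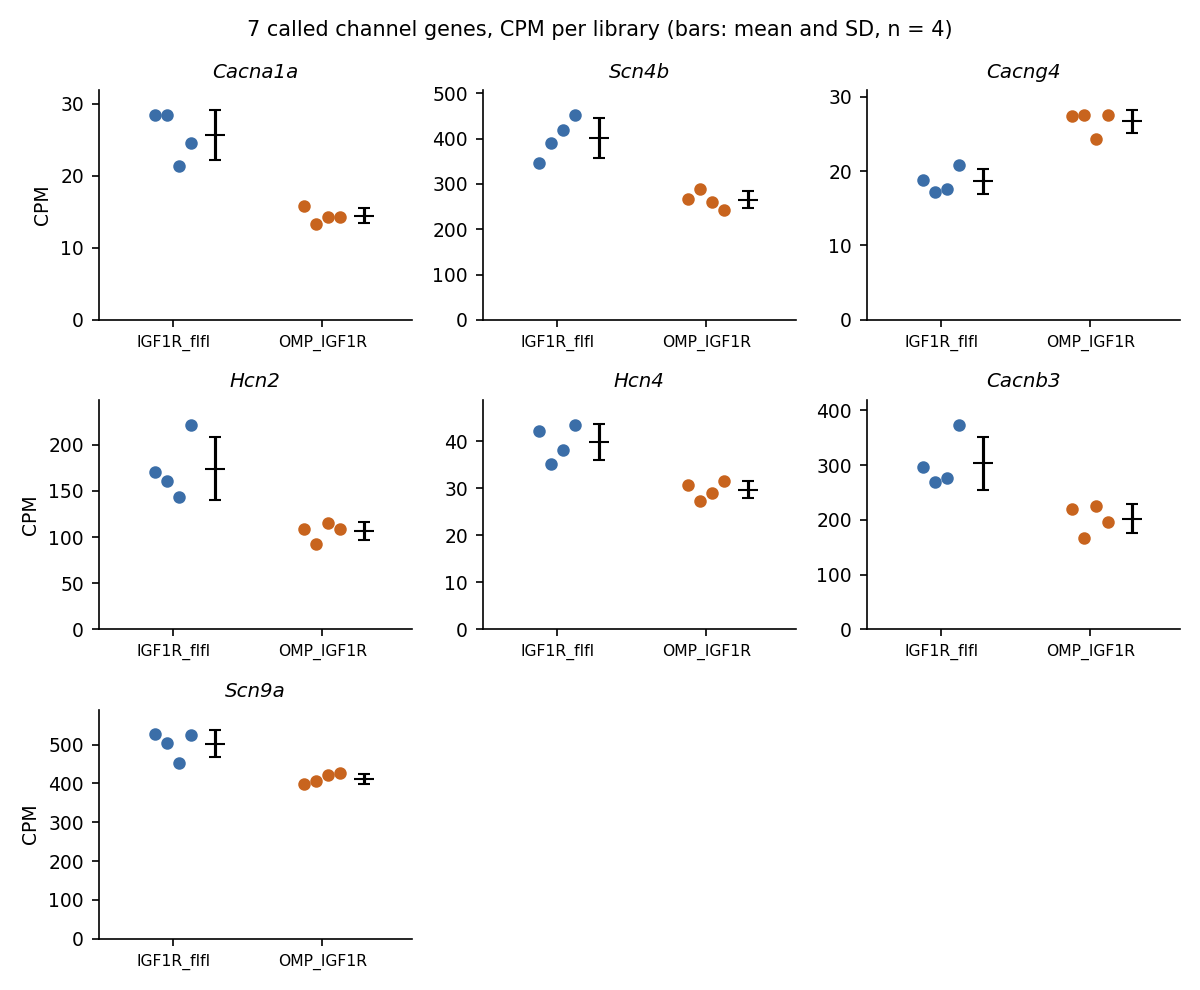
CPM of 7 called channel genes (y axes, from 0) in each library of the 2 title groups (x axis), with bars for mean and SD, n = 4. In all 7 panels the groups are apart, Cacng4 with the libraries titled OMP_IGF1R on top and the other 6 with those libraries below.

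Among the sodium channel alpha subunits, Scn9a was lower. It codes for the channel that olfactory sensory neurons need for transmitter release from their axon terminals. It lies on chromosome 2 from 66480080 to 66634952. It stood at 527, 505, 451 and 524 CPM in libraries 1, 2, 13 and 3 of IGF1R_flfl, and at 397, 405, 420.4 and 426 CPM in libraries 11, 12, 17 and 18 of OMP_IGF1R. The groups did not overlap, but the highest OMP_IGF1R library and the lowest IGF1R_flfl library lay close together. The means were 502 ± 35.0 CPM and 412 ± 13.1 CPM (SD, n = 4 each), and the log2 fold change was -0.28 (adjusted p = 0.0325 by edgeR, SE 0.07). This call was lost in 7 of the 8 fits that left out 1 library, where the largest adjusted p was 0.102, and it was kept only without IGF1R_flfl 13. It was also lost without IGF1R_flfl 2 and OMP_IGF1R 17 together (adjusted p = 0.0829).

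Scn3a, Scn8a, Scn7a and Scn11a were not called. Scn3a, an embryonic and early postnatal neuronal channel, stood at 28.4, 29.2, 30.9 and 32.04 CPM in libraries 1, 2, 13 and 3 of IGF1R_flfl, and at 36.8, 39.1, 29.1 and 35.1 CPM in libraries 11, 12, 17 and 18 of OMP_IGF1R. Its log2 fold change was 0.22 (adjusted p = 0.179 by edgeR, SE 0.09), and OMP_IGF1R 17 was the library that lay among the IGF1R_flfl values. Without that library edgeR called Scn3a higher, at 0.30 (adjusted p = 0.0344). Scn8a, a channel of axon initial segments and nodes, ranged from 49.3 to 80.2 CPM and from 52.7 to 74.0 CPM, with a log2 fold change of -0.03 (SE 0.15). Scn7a, a sodium-sensing channel of glia, had 0.26 (SE 0.22), and Scn11a, a channel of pain-sensing neurons, had 0.22 (SE 0.35) at mean levels of 0.709 and 0.821 CPM. Without IGF1R_flfl 2 these log2 fold changes were 0.11 for Scn8a, 0.45 for Scn7a and 0.0055 for Scn11a, none of them called by edgeR (the smallest adjusted p was 0.203). Of the 857 counts of Scn1a, 97.0% were in IGF1R_flfl 2, which alone reached 31.7 CPM. Neither it nor Scn10a, with 5 counts in all, was tested.

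Per kb of exon, Scn9a led the sodium alpha genes with 39.3 CPM per kb in the libraries titled IGF1R_flfl and 32.3 CPM per kb in those titled OMP_IGF1R. Scn9a held 56.8% ± 0.849 of the family's summed level in one group and 57.4% ± 2.18 in the other (SD, n = 4 each). Scn3a held 3.51% and 5.0%, with no overlap between groups. A share depends on every gene of its family, and the CPM of Scn3a itself overlapped between groups. The summed level was 69.2 ± 5.06 and 56.2 ± 0.750 CPM per kb (SD, n = 4 each). These sums did not overlap, but they did when raw library totals replaced the normalisation factors. Stretches of 50 bases shared with transcripts of other genes made up 4.04% of Scn9a and 6.49% of Scn3a. Reads were 100 bases long per the labels, so a shared stretch need not leave a read ambiguous. Whether any reads were assigned to the wrong gene was not tested.

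Among the sodium beta genes, Scn4b was lower. Its product, beta4, is known for promoting resurgent sodium current, and the gene lies on chromosome 9 from 45138437 to 45154152. It stood at 347, 390.3, 418 and 452 CPM in libraries 1, 2, 13 and 3 of IGF1R_flfl, and at 267, 289.6, 260.1 and 243 CPM in libraries 11, 12, 17 and 18 of OMP_IGF1R. No library titled OMP_IGF1R reached the lowest IGF1R_flfl value. The means were 402 ± 44.5 CPM and 265 ± 19.2 CPM (SD, n = 4 each), and the log2 fold change was -0.60 (adjusted p = 0.00704 by edgeR, SE 0.09).

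Scn3b, which codes for beta3, ranged from 179 to 238 CPM and from 181 to 253 CPM, with a log2 fold change of 0.12 (adjusted p = 0.579 by edgeR, SE 0.12). Scn4b and Scn3b were the highest beta genes per kb of exon, at 80.7 and 36.2 CPM per kb in the libraries titled IGF1R_flfl and 53.2 and 39.4 CPM per kb in those titled OMP_IGF1R. The share of Scn4b in the summed beta level was 59.3% ± 3.90 and 47.7% ± 1.68 (SD, n = 4 each), and that of Scn3b was 26.6% and 35.2%. Neither share overlapped between groups, while the summed level of 136 ± 13.9 and 112 ± 8.84 CPM per kb (SD, n = 4 each) did. Scn2b, which codes for beta2, was highest in IGF1R_flfl 2, at 15.4 CPM, and was not called. Its log2 fold change was -1.26 (SE 0.73) with all libraries and 0.32 without this one.

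**Figure D3:**
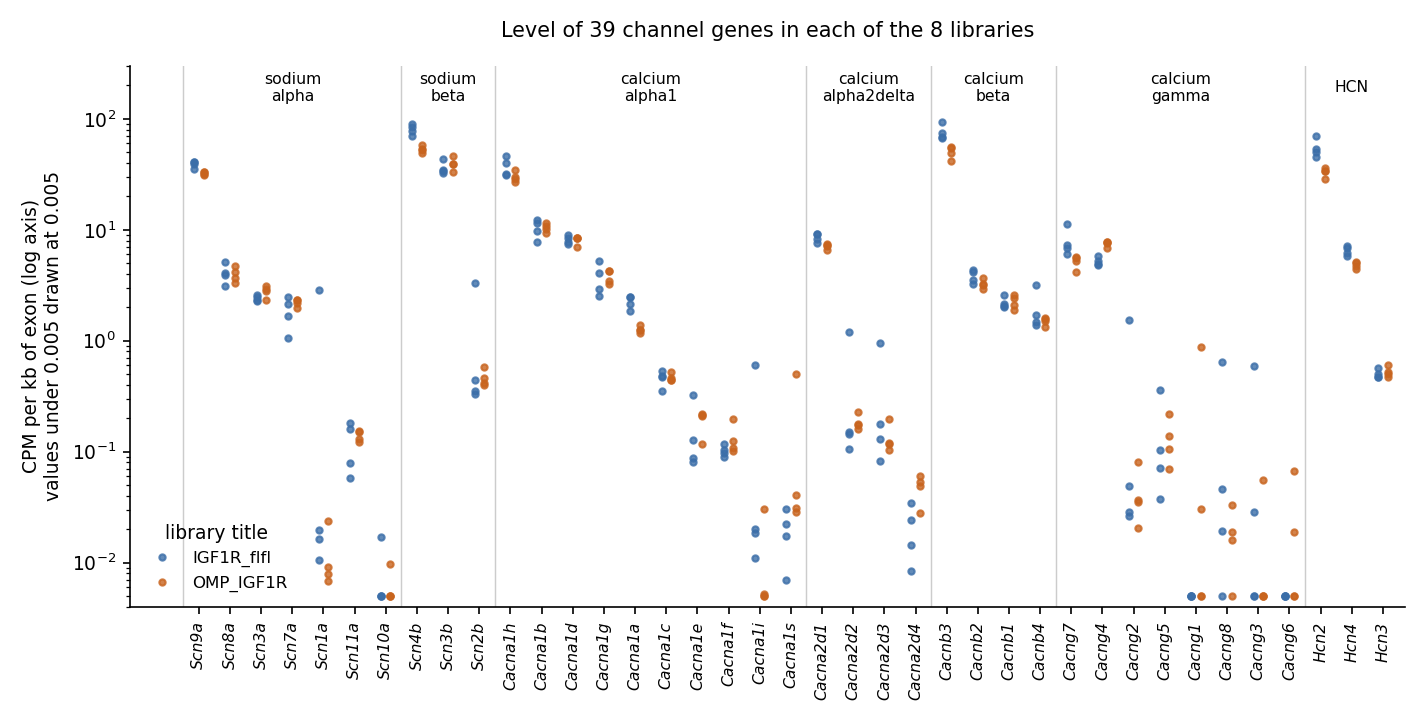
Level of 39 channel genes in each of the 8 libraries as CPM per kb of exon (log axis; values under 0.005 are drawn at 0.005), with genes on the x axis by family and colour for the title group. Scn4b, Cacnb3, Hcn2, Scn9a, Scn3b and Cacna1h have the highest levels, the lone high points of Scn1a, Scn2b, Cacna1i, Cacna2d2 and Cacna2d3 are IGF1R_flfl 2, and that of Cacna1s is OMP_IGF1R 17.

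Of the calcium channel alpha1 genes, 8 of 10 were tested and Cacna1a was lower. It codes for the P/Q-type channel of presynaptic terminals and lies on chromosome 8 from 84388440 to 84640246. Its levels were 28.4, 28.4, 21.3 and 24.5 CPM in libraries 1, 2, 13 and 3 of IGF1R_flfl, and 15.9, 13.3, 14.2 and 14.3 CPM in libraries 11, 12, 17 and 18 of OMP_IGF1R. The groups were well apart. The means were 25.7 ± 3.45 CPM and 14.4 ± 1.05 CPM (SD, n = 4 each), and the log2 fold change was -0.83 (adjusted p = 0.00402 by edgeR, SE 0.10). This was the smallest p among the channel genes. Exons of the antisense gene Gm16183 overlap 3.8% of its exon bases.

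Cacna1h, a low-voltage-activated T-type channel, was the highest alpha1 gene per kb of exon, at 37.3 and 30.2 CPM per kb. It stood at 389.5, 307, 310.0 and 449.6 CPM in libraries 1, 2, 13 and 3 of IGF1R_flfl, and at 338, 266, 281 and 294 CPM in libraries 11, 12, 17 and 18 of OMP_IGF1R. The groups overlapped, and the log2 fold change of -0.30 (SE 0.13) was not called (edgeR adjusted p = 0.197). Cacna1b, the N-type channel of presynaptic terminals, stood at 122, 96.0, 77.9 and 114 CPM in libraries 1, 2, 13 and 3 of IGF1R_flfl, and at 114, 107, 93.1 and 102 CPM in libraries 11, 12, 17 and 18 of OMP_IGF1R. Its groups overlapped too, with a log2 fold change of 0.02 (adjusted p = 0.941 by edgeR, SE 0.13). The difference between Cacna1a and Cacna1b in their change was not tested.

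The L-type genes Cacna1d and Cacna1c had log2 fold changes of -0.02 (SE 0.08) and 0.02 (SE 0.13). Cacna1d stood at 114, 98.0, 94.8 and 106 CPM in libraries 1, 2, 13 and 3 of IGF1R_flfl, and at 107, 105, 89.1 and 107 CPM in libraries 11, 12, 17 and 18 of OMP_IGF1R. Cacna1c ranged from 7.495 to 11.4 CPM and from 9.38 to 10.97 CPM. In both genes the groups overlapped. Cacna1g, another T-type gene, had 0.03 (SE 0.21) and Cacna1f, the L-type gene of photoreceptors, 0.36 (SE 0.25). Cacna1e, the R-type gene, had 0.30 (SE 0.43), and 8.15 CPM in IGF1R_flfl 2 was its highest level. Without that library edgeR called Cacna1e higher, at 0.96 (adjusted p = 0.0483), and without OMP_IGF1R 17 as well at 1.13 (adjusted p = 0.0150).

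Cacna1s, the voltage sensor of skeletal muscle, had counts of 4, 3, 1 and 5 in libraries 1, 2, 13 and 3 of IGF1R_flfl, and of 4, 5, 74 and 7 in libraries 11, 12, 17 and 18 of OMP_IGF1R. Cacng1, the gamma subunit of the same muscle channel, had 0 counts in the 4 libraries titled IGF1R_flfl and 0, 0, 25 and 1 in libraries 11, 12, 17 and 18 of OMP_IGF1R. Both peaked in OMP_IGF1R 17, the library with the most RNA of skeletal muscle genes, and neither was tested. Cacna1i had 87.3% of its 181 counts in IGF1R_flfl 2.

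The summed alpha1 level was 62.6 ± 9.25 and 54.7 ± 4.65 CPM per kb (SD, n = 4 each), and the groups overlapped. Within it, Cacna1a held 3.63% in the libraries titled IGF1R_flfl and 2.31% in those titled OMP_IGF1R, and Cacna1b 16.4% and 19.1%. Neither of these shares overlapped between groups, though the CPM of Cacna1b itself did.

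Among the auxiliary calcium channel subunits, Cacnb3 was lower and Cacng4 was higher. Cacnb3 codes for a beta subunit that brings alpha1 pores to the membrane, and lies on chromosome 15 from 98632220 to 98644530. It stood at 296, 268.5, 275.5 and 374 CPM in libraries 1, 2, 13 and 3 of IGF1R_flfl, and at 219.6, 166.5, 225 and 196 CPM in libraries 11, 12, 17 and 18 of OMP_IGF1R. All 4 libraries titled OMP_IGF1R were below the others. The means were 304 ± 48.4 CPM and 202 ± 26.6 CPM (SD, n = 4 each), and the log2 fold change was -0.59 (adjusted p = 0.0231 by edgeR, SE 0.13). The call was lost by edgeR without IGF1R_flfl 1 (adjusted p = 0.0508), OMP_IGF1R 12 (0.0633) or OMP_IGF1R 18 (0.0743).

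Per kb of exon Cacnb3 made up 90.3% and 87.7% of the summed beta level, which was 83.7 ± 11.8 and 57.3 ± 7.07 CPM per kb (SD, n = 4 each) without overlap. Cacnb2, Cacnb4 and Cacnb1, the other beta subunits, were not called. Their log2 fold changes were -0.23 (SE 0.10), -0.36 (SE 0.24) and 0.02 (SE 0.13), and that of Cacnb4 was -0.0090 without IGF1R_flfl 2. Cacnb4 had its highest level, 28.4 CPM, in IGF1R_flfl 2 against 11.99 to 15.4 CPM elsewhere, and 16.0% of its exon bases overlap A430018G15Rik on the opposite strand.

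Cacng4 belongs to the gamma subunits that are also auxiliary proteins of AMPA-type glutamate receptors. It lies on chromosome 11 from 107732357 to 107794557. It stood at 18.8, 17.1, 17.6 and 20.9 CPM in libraries 1, 2, 13 and 3 of IGF1R_flfl, and at 27.4, 27.5, 24.4 and 27.5 CPM in libraries 11, 12, 17 and 18 of OMP_IGF1R. Each library titled OMP_IGF1R was above each titled IGF1R_flfl, and OMP_IGF1R 17 was the lowest of its group. The means were 18.6 ± 1.66 CPM and 26.7 ± 1.56 CPM (SD, n = 4 each), and the log2 fold change was 0.52 (adjusted p = 0.00708 by edgeR, SE 0.08).

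Cacng7, a gamma subunit of the same kind, stood at 17.8, 27.6, 14.7 and 16.9 CPM in libraries 1, 2, 13 and 3 of IGF1R_flfl, and at 13.5, 14.02, 12.8 and 10.2 CPM in libraries 11, 12, 17 and 18 of OMP_IGF1R. The groups did not overlap, but the log2 fold change of -0.61 (SE 0.19) missed the threshold (edgeR adjusted p = 0.0890, DESeq2 adjusted p = 0.0267). Without IGF1R_flfl 2, its highest library, the log2 fold change of Cacng7 was -0.37 (edgeR adjusted p = 0.102). Cacng5 had a log2 fold change of -0.11 (SE 0.64) with all libraries and 0.92 without IGF1R_flfl 2, and was called in neither fit. Of the summed gamma level, Cacng7 held 56.0% and 39.3% and Cacng4 39.1% and 57.2%, neither overlapping between groups, so that Cacng7 led in one title group and Cacng4 in the other. The sum itself was 13.97 ± 3.59 and 13.1 ± 0.721 CPM per kb (SD, n = 4 each) with overlap. IGF1R_flfl 2 held 86.0% of the 258 counts of Cacng2, 83.3% of the 48 of Cacng8 and 89.6% of the 48 of Cacng3, none of which was tested, and Cacng6 had 4 counts.

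Cacna2d1, the alpha2delta subunit with 92.8% and 95.1% of that family's summed level, stood at 114, 115, 93.9 and 103 CPM in libraries 1, 2, 13 and 3 of IGF1R_flfl, and at 81.0, 88.8, 91.4 and 92.5 CPM in libraries 11, 12, 17 and 18 of OMP_IGF1R. The groups did not overlap, with means of 106 ± 9.89 CPM and 88.5 ± 5.20 CPM (SD, n = 4 each). Its log2 fold change of -0.27 (SE 0.08) missed the threshold by edgeR (adjusted p = 0.0619) and passed it by DESeq2 (adjusted p = 0.0188) and by edgeR without IGF1R_flfl 13 (adjusted p = 0.0354). The summed alpha2delta level was 9.32 ± 1.54 and 7.49 ± 0.435 CPM per kb (SD, n = 4 each), apart with these factors and overlapping on raw totals. Cacna2d2 and Cacna2d3 had 53.3% and 52.8% of their counts in IGF1R_flfl 2. Their log2 fold changes were -1.11 (SE 0.74) and -1.32 (SE 0.71) with all libraries, and 0.49 and 0.06 without that one. Cacna2d4 had 62 counts in all.

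**Figure D4:**
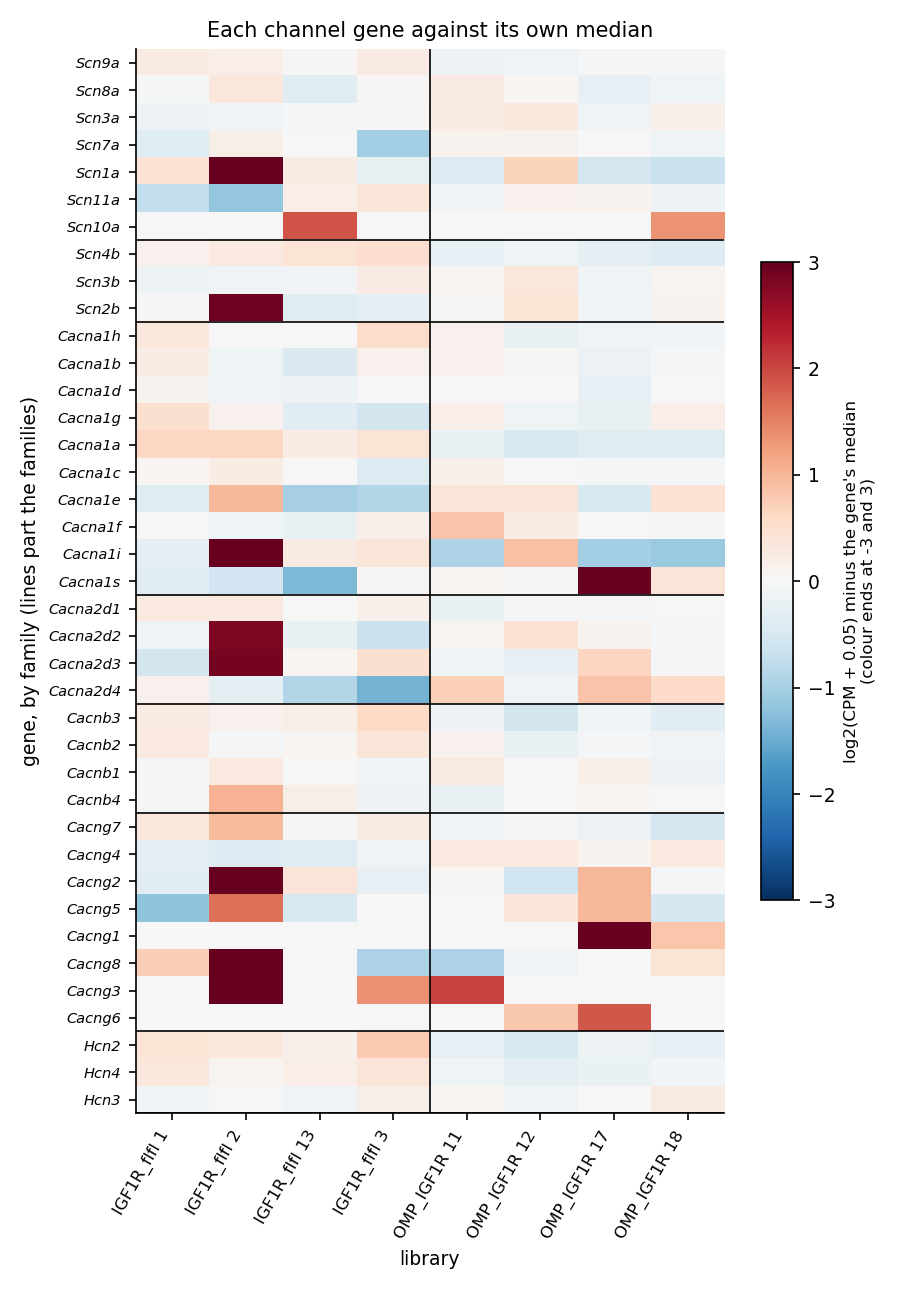
Each of 39 channel genes (y axis, by family) in each library (x axis) as log2(CPM + 0.05) minus the gene's median over the 8 libraries, with the colour scale ending at -3 and 3. The strongest colours sit in IGF1R_flfl 2 (Scn1a, Scn2b, Cacna1i, Cacna2d2, Cacna2d3, Cacng2, Cacng3 and Cacng8) and in OMP_IGF1R 17 (Cacna1s and Cacng1), while the called genes differ by small steps across all libraries of a group.

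Counting overlap alone, 10 of the 32 tested channel genes (31.2%) had every library titled OMP_IGF1R below every library titled IGF1R_flfl, and 10.3% of all tested genes did. Cacng4 alone (3.12%) had them all above, which 6.57% of all tested genes did. In the authors' deposited table of their own comparison, 10 of the 42 genes had a negative and 1 a positive fold change at an adjusted p under 0.05. These are the 9 genes called here and Cacna2d1 and Cacng7. Some of the 42, Scn1a, Scn2b and Cacng2 among them, carry no adjusted p there and could not pass. The share over all genes of that comparison was not computed. DESeq2 as run here called 12.6% of all genes that had an adjusted p, in either direction.

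Partner proteins of these channels were taken as lists of 36 genes, 35 of which were tested by edgeR. They were 6 lower and 0 higher at an adjusted p under 0.05, beside 5.37% and 2.83% of all genes, and their median log2 fold change was -0.11. At an unadjusted p under 0.05 edgeR had 1 partner higher, and DESeq2 called 0 higher and 8 lower. Without OMP_IGF1R 18, 3 were called lower, in a fit where 3.25% of all genes were called in either direction.

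Of the 4 HCN partners, Pex5l was lower. It codes for TRIP8b, which binds HCN channels and controls their trafficking and their response to cyclic AMP. It stood at 151, 162, 149 and 179 CPM in libraries 1, 2, 13 and 3 of IGF1R_flfl, and at 120.5, 114, 115 and 116 CPM in libraries 11, 12, 17 and 18 of OMP_IGF1R. The groups did not overlap, and the log2 fold change was -0.46 (adjusted p = 0.00604 by edgeR, SE 0.07). Flna, which codes for the actin crosslinker filamin A, had 0.34 (SE 0.15), and Kctd3, which codes for an HCN3-binding protein, 0.07 (SE 0.05), and neither was called.

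Of the 13 sodium channel partners, Fgf12 and Nedd4l were lower. Fgf12 codes for an intracellular protein that binds the tail of sodium channel alpha subunits, and stood at 167, 185, 169 and 195 CPM in libraries 1, 2, 13 and 3 of IGF1R_flfl, and at 114, 127, 141 and 132 CPM in libraries 11, 12, 17 and 18 of OMP_IGF1R. Its groups did not overlap, and its log2 fold change was -0.48 (adjusted p = 0.00918 by edgeR, SE 0.08). Nedd4l, a ubiquitin ligase for sodium channels, had -0.38 (adjusted p = 0.0407 by edgeR, SE 0.10), a call lost in 11 of the 15 alternative settings, among them 7 of the 8 fits that left out 1 library, upper-quartile factors (0.0516), no filter (0.0516) and limma voom (0.0508). Unc79, part of the NALCN sodium leak channel complex, had -0.31 (SE 0.10) and was not called (edgeR adjusted p = 0.0905).

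Of the 18 tested calcium channel partners, Ryr3 and Rims1 were among the lower ones. Ryr3, a calcium release channel of the endoplasmic reticulum, stood at 9.52, 10.7, 6.27 and 9.24 CPM in libraries 1, 2, 13 and 3 of IGF1R_flfl, and at 3.57, 4.22, 3.76 and 3.15 CPM in libraries 11, 12, 17 and 18 of OMP_IGF1R. Its groups were far apart, with a log2 fold change of -1.28 (adjusted p = 0.00513 by edgeR, SE 0.17). Rims1, an active-zone scaffold that binds calcium channels, had -0.62 (adjusted p = 0.0314 by edgeR, SE 0.15), a call lost in 5 of the 8 fits that left out 1 library. Ryr1, the release channel of skeletal muscle, had 10.3 CPM in OMP_IGF1R 17 and 0.960 to 1.28 CPM in the other libraries of that group. The libraries titled IGF1R_flfl had 0.357 to 0.636 CPM, without overlap between groups. The log2 fold change of Ryr1 was 2.79 (edgeR adjusted p = 0.0738), and 1.18 without OMP_IGF1R 17 (edgeR adjusted p = 0.0372).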

How the data were processed

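RNA from 8 olfactory epithelium samples was sequenced from stranded poly(A) libraries, per the labels' protocols. Per the submitters' processing notes, the authors used TopHat2 2.0.14, Trim Galore 0.3.7, DESeq2 and SAMtools 1.2, with the build GRCm38 (mm10). How reads were counted, and with which strand setting, is not given in the sources used here. The deposited counts are whole, unnormalized numbers per gene. The authors' deposited comparison holds, per the file headers, a test score, p-values, a mean normalized signal and log2 fold changes per gene, and was used for description. A further 8 columns of standard deviations were not used.

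Groups follow the titles. Counts were fitted with edgeR 4.0.16 in R 4.3.3 (TMM factors, filterByExpr, quasi-likelihood F-test) over all 17381 genes that passed the filter, with Benjamini-Hochberg adjustment over all of them. Standard errors are the fold change divided by the root of F. CPM uses TMM-scaled totals, and lengths are GENCODE M21 exon unions, which matched all 42 channel genes. Members and lists were chosen with earlier results of these data known. Libraries of a group differed by more than sampling noise, the chi-square averaged over genes being 11.4 to 103.5 in the 12 pairs. The code was tested on simulated data. Alternatives were other normalization factors, other filters, DESeq2 1.42.0, limma voom (limma 3.58.1) and leaving out each library. All channel genes may be named, with values per library for called genes, the highest of each family, the HCN genes and a fixed set that includes Scn3a, Cacna1b, Cacna1c, Cacna1d and Cacna2d1; partners are the called ones and the 3 with the smallest p in each list. Ryr1 and Unc80 were named after their values were seen. Scn4a was not analysed here, and single results of a few channel and partner genes, though part of all counts and sums, are not reported here.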

Additional observations from a re-analysis of the deposited data

Results flagged for a closer look

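The values below are single libraries that lay far from the other 3 of their title group by Dixon's test, which was run on 96 groups with at least 20 counts and marked 19; chance marks about 1 in 20 groups.

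In IGF1R_flfl 2, 8 channel genes stood far above the other 3 libraries of the group. These were Scn1a at 31.7 CPM, Scn2b at 15.4 CPM, Cacna2d2 at 9.53 CPM, Cacng2 at 8.46 CPM, Cacna2d3 at 8.27 CPM, Cacna1i at 6.02 CPM, Cacng3 at 1.64 CPM and Cacng8 at 1.52 CPM. In the same library the summed olfactory bulb and oligodendrocyte genes reached 2814 CPM, the ensheathing glia and Schwann cell genes 908 CPM and the skeletal muscle genes 18.1 CPM. Pvalb alone held 11.4 CPM of that muscle sum, against 0 to 0.159 CPM in the other 3 libraries of the group. Acta1 at 0.534 CPM and Ckm at 0.686 CPM lay within the range of those 3 libraries. In IGF1R_flfl 3, Scn3b stood at 238 CPM against 179 to 188 CPM in the other 3.

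In OMP_IGF1R 17 the summed skeletal muscle genes reached 598 CPM. Cacna1s at 3.27 CPM, Cacng1 at 1.11 CPM and Cacna2d3 at 1.72 CPM were high in that library. Cacna1d at 89.1 CPM, Cacng4 at 24.4 CPM and Cacna1e at 2.96 CPM were low there. Whether these departures share a source was not tested.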

How the results depend on the processing

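Over 15 alternatives (other factors, filters and tools, and libraries left out), 500 of 577 values of the named genes kept direction and call. Of the rest, 28 lost the call, 10 gained one and 39 changed sign. The 577 values include those of genes not called with all libraries, which had no call to lose. Such a gene counts as kept where it stayed uncalled with the same sign. The lost calls were those of Nedd4l (11 of its 15 values), Scn9a (8 of 15), Rims1 (6 of 15) and Cacnb3 (3 of 15). No paired analysis was possible because the 2 title groups share no replicate numbers. The causes of the changes below were not tested.

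With 1 library left out, 5 to 9 channel genes were called lower (8 with all), 1 to 3 higher (1 with all), and the median log2 fold change ran from -0.26 to 0.057. Leaving out IGF1R_flfl 2 and OMP_IGF1R 17 together gave 3 higher and a median of 0.032, where 7.47% of all genes were called in either direction. The median was -0.26 with a filter of 1 CPM in 4 libraries, -0.016 by DESeq2 and -0.075 by limma voom. With 1 library left out, partners called lower ran from 3 to 5 and called higher from 0 to 1; without both libraries 1 was higher (Unc80), and DESeq2 called 8 lower. All genes called (1425 with all libraries) ran from 569 (without OMP_IGF1R 18) to 1477 (without IGF1R_flfl 2) in those fits of 7 libraries, and were 2126 by DESeq2 and 1850 by limma voom. On raw totals the sodium alpha level of the libraries titled OMP_IGF1R was 57.6 CPM per kb.

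All sign changes were in genes that were not called with all libraries. With 1 library left out, the log2 fold change ran from -0.0803 to 0.12 for Cacna1b, -0.014 to 0.14 for Hcn3, -0.086 to 0.11 for Cacna1c, -1.55 to 0.32 for Scn2b, -1.43 to 0.49 for Cacna2d2, -0.10 to 0.25 for Cacna1g, -0.045 to 0.12 for Cacnb1, -0.44 to 0.92 for Cacng5, -1.65 to 0.057 for Cacna2d3, -0.045 to 0.054 for Cacna1d, -0.13 to 0.11 for Scn8a and -0.26 to 0.30 for Unc80. Without IGF1R_flfl 2 and OMP_IGF1R 17 it was 0.38 for Scn2b, 0.51 for Cacna2d2, -0.028 for Scn11a, 0.032 for Cacna1d, 0.18 for Scn8a and 0.37 for Unc80. By limma voom it was -0.024 for Cacna1c, -0.032 for Cacnb1, 0.42 for Cacng5, 0.0094 for Cacna1d, 0.042 for Scn8a and 0.11 for Unc80. With upper-quartile factors it was 0.017 for Cacna1d and 0.00087 for Scn8a.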
